A study of Mus musculus with 6 samples.

Results

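S100 proteins are small calcium-binding proteins with EF-hand loops, and annexins are proteins that bind acidic membrane lipids when calcium rises. The families meet in complexes: the best known is the heterotetramer of S100A10 and annexin A2, which sits under the plasma membrane of epithelial cells and links it to actin and to vesicle traffic. Other pairs include S100A11 with annexin A1 and S100A6 with annexin A11, and both families take part in membrane repair. In the intestine several of them are expressed in the epithelium, annexin A2, A4 and A13 among them.

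The genes described here are S100a6, S100a10, S100a11, S100a13, Anxa2, Anxa3, Anxa4, Anxa5, Anxa7 and Anxa11, taken by symbol from the deposited table. They are 10 of its 52249 genes, and 9 had enough counts to be tested. The data are 3′ mRNA sequencing libraries of mouse intestinal organoids, which are cultures of intestinal epithelium grown from crypt cells. In all 6 libraries Apc, a tumour suppressor that limits WNT signalling, is knocked out. The labels give 3 libraries with that knockout alone (control) and 3 that in addition overexpress IGF2BP3, an RNA-binding protein that acts on mRNA stability (OE). The labels name no strain, age, Cre driver, overexpression construct, culture or clone, so p-values measure the spread between these libraries, which may be technical.

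Libraries held 2180116 to 2519917 counts, so that 3 counts, the detection floor, corresponded to 1.19 to 1.38 CPM (the count relative to the scaled library size). Igf2bp3 was recorded 1, 0 and 0 times in control and equally in OE libraries. These counts did not show the overexpression that the label states. The labels do not describe the construct, and whether it carries a 3′ end counted at this gene was not tested. The OE libraries differed more among themselves than the control libraries, with a biological coefficient of variation of 17.2% against 3.13%. The edgeR fit used below estimates the spread of each gene from both groups together, so its SEs, intervals and p-values do not reflect this inequality. The library names form a separate series for each group, so library series and overexpression cannot be told apart here. Of 12 listed epithelial markers, Epcam was at 432 ± 1.33 CPM among control and 455 ± 25 CPM among OE libraries (SD, n = 3). Cdh1, Krt8, Krt18, Krt19, Cldn7 and Vil1 were also far above the floor. Cdx2 (means of 10.06 CPM in control and 13.02 in OE), Lgr5 (8.349 and 10.08) and Olfm4 (4.635 and 6.312) were low. Krt20 and Cdx1 had 0 counts in all 6 libraries. The 10 mesenchymal markers summed to 0.922 to 3.28 CPM in control and 0.846 to 1.97 CPM in OE libraries, with Col1a2, Col3a1, Pdgfrb, Dcn, Lum and Thy1 at 0. The 5 endothelial markers summed to 0.921 to 1.84 and 0.81 to 1.18 CPM, with Cdh5 at 0. The 8 leukocyte markers summed to 171 to 177 and 145 to 267 CPM, nearly all of it Cd14, Csf1r and Cd68 (Csf1r was higher in OE libraries, by 0.68 on the log2 scale), while Cd3e and Lyz2 had 0 counts.

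Of the 9 tested members, 5 were higher in OE libraries and 0 were lower (edgeR, adjusted p below 0.05). These were S100a10, Anxa5, Anxa2, Anxa7 and Anxa4. At an unadjusted p below 0.05 the number lower was also 0, as it was by DESeq2 and limma-voom at the adjusted threshold. Over all 10687 tested genes, 16.5% were higher and 12.7% lower (29.2% in either direction). The median log2 fold change was 0.3 for the 9 members and 0.04 for all tested genes. For 6 of the 9 the CPM values of all OE libraries lay above those of all control libraries, against 25.3% of all tested genes (45.8% in either direction). Only S100a10 and Anxa5 passed in all 18 processing alternatives. The number of members called higher was 3 with DESeq2's test, with DESeq2 size factors and without mitochondrial genes, and 2 to 4 when 1 library was left out. Over all tested genes these settings called 2093, 3079 and 3116 in either direction, and the fits without 1 library 1747 to 3523. The fit of all 6 libraries called 3116.

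**Figure D1:**
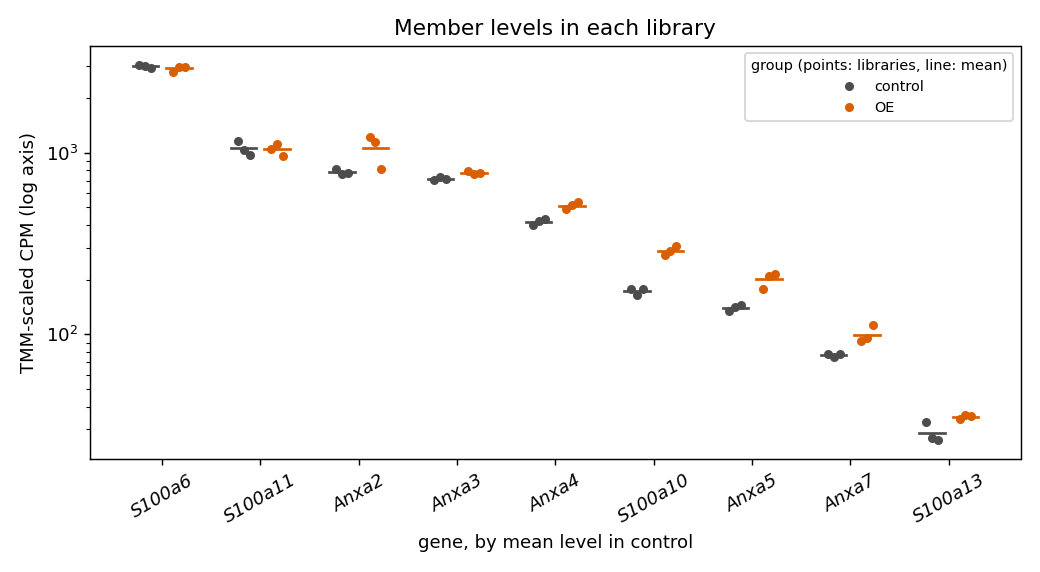
TMM-scaled CPM (log axis) of the 9 tested members in each library, control in grey and OE in orange; points are libraries and lines are group means (n = 3). S100a6 and S100a11 lie at one level in both groups, and the S100a10 points of the OE libraries (273.9 to 305.3 CPM) lie above those of control (165.1 to 178.3 CPM).

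Upstream sequences are shown for 4 members, chosen as a called annexin with several motif matches (Anxa2), a called annexin with none (Anxa5), an S100 gene whose level did not pass (S100a11) and the member that shares its start region with another S100 gene (S100a13). Each window runs from 250 bases before to 50 bases after the RefSeq start (GRCm38.p6). The sequences are written 5′ to 3′ on the gene's strand, and capitals mark matches to the 5 motifs searched on both strands. These were the TATA box TATAAA, the GC box GGGCGG, the AP-1 site TGANTCA, the TEAD site GGAATG and the E-box CACGTG.
Anxa2 (chr9:69453433-69453732, plus strand): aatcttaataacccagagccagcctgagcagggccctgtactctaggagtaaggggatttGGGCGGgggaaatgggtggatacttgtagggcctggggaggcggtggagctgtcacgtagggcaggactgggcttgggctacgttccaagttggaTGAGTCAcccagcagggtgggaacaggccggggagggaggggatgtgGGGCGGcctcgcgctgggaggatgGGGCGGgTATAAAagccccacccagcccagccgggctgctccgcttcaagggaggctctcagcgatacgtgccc
Anxa5 (chr3:36475838-36476137, minus strand): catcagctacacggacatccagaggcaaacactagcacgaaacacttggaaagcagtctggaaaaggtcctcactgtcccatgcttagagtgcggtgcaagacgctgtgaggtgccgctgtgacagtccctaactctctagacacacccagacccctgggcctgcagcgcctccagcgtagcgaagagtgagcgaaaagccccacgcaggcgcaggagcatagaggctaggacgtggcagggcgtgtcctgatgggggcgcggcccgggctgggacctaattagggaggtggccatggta
S100a11 (chr3:93520246-93520545, plus strand): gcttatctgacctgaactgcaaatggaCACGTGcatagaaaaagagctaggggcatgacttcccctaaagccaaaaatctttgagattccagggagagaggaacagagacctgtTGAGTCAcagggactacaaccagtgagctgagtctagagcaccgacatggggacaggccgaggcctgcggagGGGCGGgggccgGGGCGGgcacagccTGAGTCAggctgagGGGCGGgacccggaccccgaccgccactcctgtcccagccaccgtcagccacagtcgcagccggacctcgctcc
S100a13 (chr3:90514185-90514484, plus strand): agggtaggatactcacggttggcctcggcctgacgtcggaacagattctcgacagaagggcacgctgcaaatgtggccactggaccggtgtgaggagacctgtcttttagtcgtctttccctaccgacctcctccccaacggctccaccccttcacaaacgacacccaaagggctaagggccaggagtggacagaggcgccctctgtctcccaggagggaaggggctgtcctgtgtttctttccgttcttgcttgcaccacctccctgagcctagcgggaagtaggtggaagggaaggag
The Anxa2 window held 1 TATA box, beginning 17 bases before the start, with 3 GC boxes and 1 AP-1 site. The S100a11 window held 3 GC boxes, 2 AP-1 sites and 1 E-box. No capitals appear in the Anxa5 and S100a13 windows because none of the 5 motifs was found there. No matches overlapped one another in these windows. Among 32817 RefSeq promoter windows of the same length, 13.6% held a TATA box, 35.6% a GC box, 7.8% an AP-1 site, 14.7% a TEAD site and 7.1% an E-box. The windows of S100a11 and Anxa2 both hold GC boxes and an AP-1 site, and of these genes only Anxa2 was called between the groups. Whether any of the motifs bears on the calls was not tested. Of the 10 members, 8 matched an entry of the promoter table; S100a10 and Anxa3 did not.

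S100a10 encodes the S100 protein that binds annexin A2 and, unlike its relatives, has lost the ability to bind calcium. The gene lies on the plus strand of chromosome 3 (93555080 to 93564643 in GRCm38) and overlaps no other annotated gene. Its level was 177.4, 165.1 and 178.3 CPM in the control libraries and 273.9, 289 and 305.3 CPM in the OE libraries. Every OE library lay above every control library, and the groups were far apart compared with their spread. The difference was 1.67-fold, with a 95% interval of 1.43 to 1.94 (log2 fold change 0.74, SE 0.1; edgeR adjusted p = 0.000403). Among the 9 tested members it was the largest log2 fold change.

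S100a11, a calcium-binding partner of annexin A1, lies 28793 bases from S100a10 on the same strand, yet its level did not move with it. Control libraries had 1164, 1038 and 978 CPM and OE libraries 1050, 1123 and 954.3 CPM. The values of the groups were interleaved, with a log2 fold change of -0.02 (SE 0.1, 95% interval -0.25 to 0.2, edgeR adjusted p = 0.883). Gm7665 and Gm12854 share 160 bases of its 3′ end at 97.5% and 98.125% identity, so its counts are uncertain, although these copies totalled 9 and 0 counts over all 6 libraries.

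S100a6, also called calcyclin, was the most abundant member and held 67.3% to 71.2% of the counts of the 4 S100 members in each library. Its level was 3055, 2989 and 2926 CPM in the control and 2792, 2976 and 2977 CPM in the OE group. The groups overlapped, and the log2 fold change was -0.04 (SE 0.08, 95% interval -0.22 to 0.14, edgeR adjusted p = 0.775). The signs of both S100a6 and S100a11 turned positive when libraries were scaled by their totals. S100a13, which takes part in the release of FGF1 and interleukin 1 alpha from cells without a signal peptide, was the least abundant tested member. The control libraries had 32.72, 26.73 and 26.26 CPM of it, and the OE libraries 34.03, 35.78 and 35.52 CPM. Although the values did not overlap, control replicate 1 was close to the OE libraries and the difference did not pass (log2 fold change 0.3, SE 0.16, 95% interval -0.05 to 0.64, edgeR adjusted p = 0.179).

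**Figure D2:**
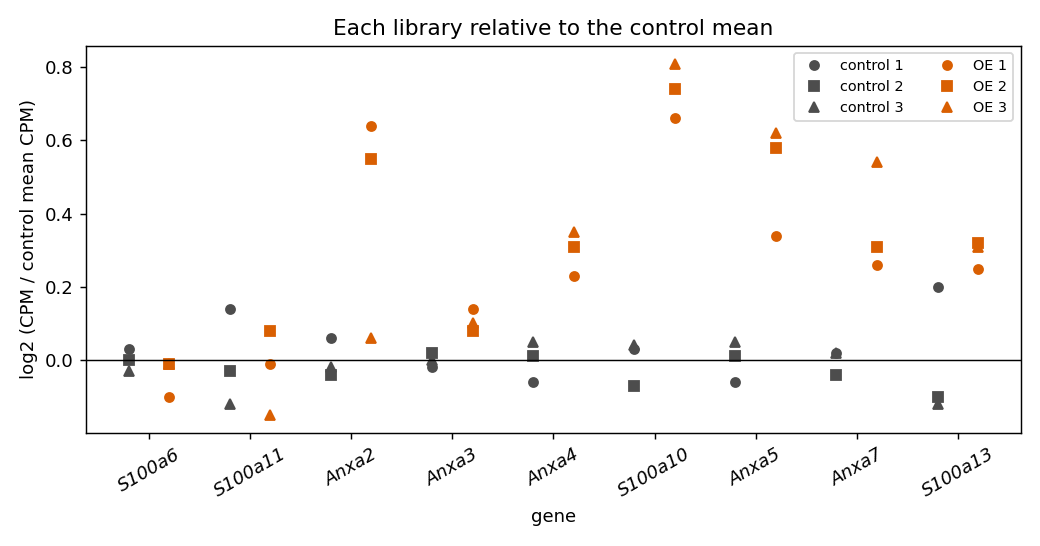
Log2 ratio of CPM to the control mean for each tested member, with control libraries in grey, OE libraries in orange and the replicate number as the marker shape. OE replicate 3 has the highest OE value for S100a10 (0.81), Anxa4, Anxa5 and Anxa7, whereas for Anxa2 (0.06) it lies with the control libraries.

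Anxa2, the annexin of the S100A10 complex, lies on the plus strand of chromosome 9 (69453620 to 69491795 in GRCm38). Its level was 816.1, 759.3 and 769.8 CPM in the control group, against 1222, 1146 and 813.1 CPM in the OE group. Replicates 1 and 2 of the OE group were above all control libraries, but OE replicate 3 was slightly below control replicate 1. The log2 fold change was 0.44 (SE 0.13, 95% interval 0.15 to 0.73, edgeR adjusted p = 0.0266). The call held without OE replicate 3 (0.57) and was lost without any other single library (adjusted p from 0.0598 to 0.137). An adjustment for GC content also ended it (0.33, edgeR adjusted p = 0.103). Anxa2 overlaps Mir3109 on its own strand and Gm16144 on the other, and whether strand was used in counting is not given in the sources used here.

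The ratio of S100a10 to Anxa2 within a library, which does not depend on scaling, was examined because the proteins form a complex. There were 21.7, 21.7 and 23.2 S100a10 counts per 100 Anxa2 counts in control libraries. In OE libraries the ratios were 22.4, 25.2 and 37.5. The control ratios were nearly equal and that of OE replicate 3 stood apart from all others. The mean rose from 22.2 ± 0.819 to 28.4 ± 8.05 (SD, n = 3) but the difference did not pass an exact two-sided permutation test (log2 difference 0.32, p = 0.2, where 3 against 3 libraries allow no p below 0.1). Without OE replicate 3 the log2 difference was 0.1.

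Anxa5, whose protein binds phosphatidylserine and is used to stain dying cells, was the annexin member with the largest fold change. It lies on the minus strand of chromosome 3 (36448923 to 36475894 in GRCm38) and overlaps Mir7009. Control libraries had 134.1, 140.7 and 144.7 CPM, and OE libraries 176.7, 209.6 and 215.2 CPM. All OE libraries were higher than all control libraries, OE replicate 1 by the least. The log2 fold change was 0.52 (SE 0.11, 95% interval 0.27 to 0.76, edgeR adjusted p = 0.00498).

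Anxa4, an annexin of secretory and absorptive epithelia, lies on the minus strand of chromosome 6 (86736840 to 86793584 in GRCm38) and overlaps Gm44036 on the other strand. Its control values were 398.6, 420.2 and 430.7 CPM and its OE values 488.2, 515.9 and 532.3 CPM. Anxa7, also called synexin, lies on the minus strand of chromosome 14 (20455260 to 20480133 in GRCm38) and overlaps no other gene. Its control values were 77.88, 75.04 and 77.86 CPM and its OE values 91.97, 95.16 and 112 CPM. For both genes all OE libraries were above all control libraries. The log2 fold changes were 0.3 for Anxa4 (SE 0.09, 95% interval 0.09 to 0.5, edgeR adjusted p = 0.0325) and 0.37 for Anxa7 (SE 0.12, 95% interval 0.11 to 0.64, edgeR adjusted p = 0.036). Both calls were lost with DESeq2's test (adjusted p = 0.109 and 0.157), and without any single library other than OE replicate 1 (adjusted p from 0.0584 to 0.155 for Anxa4 and from 0.069 to 0.131 for Anxa7).

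Anxa3, which overlaps Gm42603, had control values of 710.6, 733.6 and 719.1 CPM and OE values of 794.1, 760.5 and 772.9 CPM. The values did not overlap, but the difference was small and did not pass (log2 fold change 0.11, SE 0.09, 95% interval -0.09 to 0.3, edgeR adjusted p = 0.394). Anxa11, whose protein tethers RNA granules to lysosomes, was counted 1, 2 and 0 times in the control and 1, 1 and 0 times in the OE group. These lie below the floor, and no fold change is given. The annotation and settings used for counting are not given in the sources used here, so these values do not show whether the gene was expressed. Anxa11os, which overlaps it on the other strand, was recorded 0, 0 and 2 times in control and 0 times in each OE library.

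Levels of different genes are set side by side here as CPM of tags, since tags of a 3′ library do not grow with transcript length. Tags from 3′ ends that are not annotated or that map to several places can be missed, which was not checked for each gene. The order is therefore one of counted tags, and that of S100a11 is uncertain. In control libraries the order of mean levels was S100a6 (2990 CPM), S100a11 (1060), Anxa2 (781.8), Anxa3 (721.1), Anxa4 (416.5), S100a10 (173.6), Anxa5 (139.8), Anxa7 (76.93) and S100a13 (28.57). The ranges of neighbours in this order did not overlap in control. In OE libraries Anxa2 (1060 CPM) and S100a11 (1042 CPM) had overlapping ranges and could not be ordered, while the rest of the order was as in control.

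**Figure D3:**
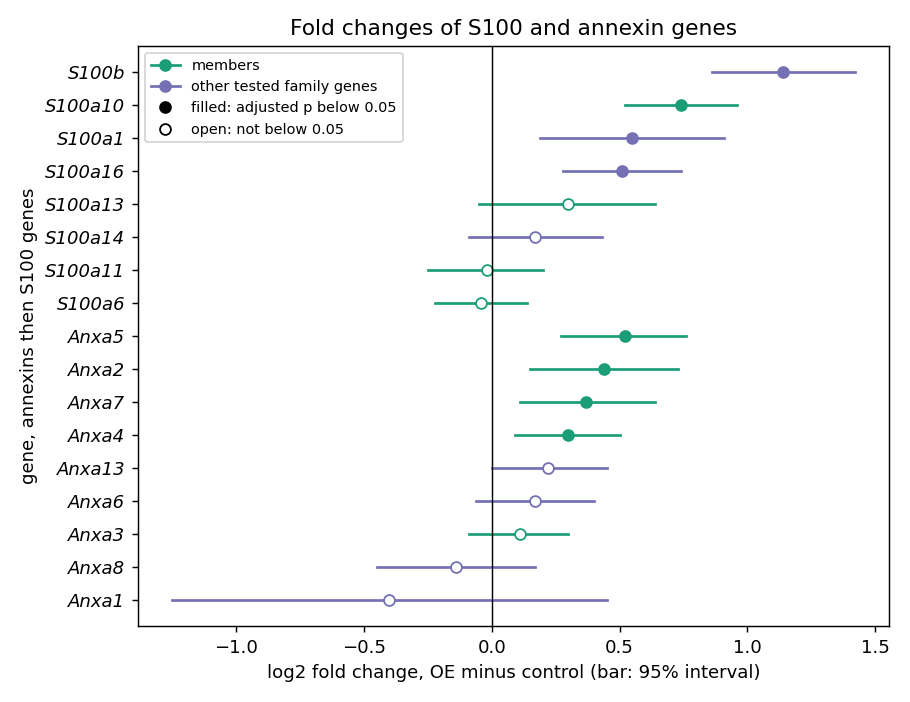
Log2 fold change (OE minus control) with 95% intervals for the 9 tested members in green and the other 8 tested genes of both families in purple; filled points had an edgeR adjusted p below 0.05. S100b (1.14) and S100a10 (0.74) lie farthest to the right, and S100a6 and S100a11 lie at 0 within their intervals.

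The remaining genes of both families were then examined. Of 15 listed S100 symbols other than the members, 5 were tested, 3 were higher and 0 lower, with a median log2 fold change of 0.51. Over all tested genes 16.5% were higher and 12.7% lower, with a median of 0.04. One of the 5, S100pbp, encodes a binding protein and not an S100 protein (log2 fold change -0.15, edgeR adjusted p = 0.527). S100b, best known from glial cells, rose from 48.5 ± 2.31 to 107.2 ± 11.5 CPM (SD, n = 3). This was a log2 rise of 1.14 (SE 0.13; edgeR adjusted p = 0.000129), and the gene overlaps Dip2a on the other strand. S100a16 rose from 100.7 ± 2.92 to 143.3 ± 4.59 CPM (log2 fold change 0.51, SE 0.11, edgeR adjusted p = 0.00391) and S100a1 from 83.06 ± 11.5 to 121.5 ± 26.6 CPM (0.55, SE 0.17, edgeR adjusted p = 0.0254; SD, n = 3). With the GC adjustment S100b alone of these passed, and S100a1 was also lost in 4 of the 6 fits that left out 1 library. S100a14 did not pass (0.17, SE 0.12, edgeR adjusted p = 0.3), but did without OE replicate 1 (0.23, adjusted p = 0.0402). S100g, the calcium buffer of absorptive cells, was recorded 1, 5 and 5 times in control and 19, 18 and 10 times in OE libraries, and was removed by the count filter. It was kept when the filter asked for 10 counts in every library of a group (log2 fold change 1.87, SE 0.46; edgeR adjusted p = 0.00906). Only the OE group met that filter, so the gene was admitted for being high there. That p-value is therefore not a separate test of a rise. The gene was also higher without a filter, where no such selection applied (1.88, SE 0.48; edgeR adjusted p = 0.00126). In the 4 fits without 1 library that kept S100g, the change ran from 1.43 to 2.16, and without control replicate 1 it did not pass (edgeR adjusted p = 0.0618). There too only OE libraries met the count filter, so these fits are not separate tests of a rise either. S100a8, a neutrophil gene, had 0 counts in all libraries, and S100a9 had a single count in control replicate 3.

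Of 6 other annexins, 4 were tested and 0 passed in either direction (edgeR adjusted p below 0.05), against 29.2% of all tested genes. Their median log2 fold change was 0.02. At an unadjusted p below 0.05 the count was also 0. The nearest was Anxa13, an annexin of intestinal epithelium (220.5 ± 5.96 CPM among control and 257.5 ± 20.6 CPM among OE libraries, SD, n = 3; log2 fold change 0.22, edgeR unadjusted p = 0.0508 and adjusted p = 0.123). DESeq2 and limma-voom called 0 of the 4. Anxa1, the partner of S100A11 and a mediator of resolution of inflammation, varied most: 127.2, 137.9 and 158.5 CPM in control and 31.6, 102.6 and 187.3 CPM in OE libraries. The OE libraries lay on both sides of control, and the difference of -0.4 on the log2 scale did not pass (SE 0.39, edgeR adjusted p = 0.471). Without OE replicate 3 it was -1.1 (edgeR adjusted p = 0.0115). Anxa6 (0.17) and Anxa8 (-0.14) did not pass (edgeR adjusted p = 0.253 and 0.49). For 2 of the 4, Anxa6 and Anxa13, all OE libraries lay above all control libraries, and for 0 they lay below. Over all tested genes these shares were 25.3% and 20.5%.

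The S100 members lie in a pair of clusters on chromosome 3, with S100a13 and S100a6 in the first and S100a11 and S100a10 in the second. S100a1 and S100a13 start 43 bases apart on opposite strands, so that the S100a13 window printed above also contains the annotated start of S100a1. S100a1 (0.55) passed and S100a13 (0.3) did not; the difference between them was not tested. S100a16, 12673 bases from S100a13, passed, and S100a14, 2275 bases from it, did not. Tested genes of other families within 50 kb of a member were Chtop (0.15), Snapin (-0.32), Ilf2 (-0.27) and Gm19739 (0.39) near the S100 genes and Gmcl1 (0.34), Ppp3cb (-0.03) and Ice2 (-0.61) near the annexins. Only Ice2 passed (edgeR adjusted p = 0.0467), and it was lower, whereas Anxa2, 20498 bases away, was higher; the call of Ice2 was lost in 10 of 18 alternatives.

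Genes whose proteins bind S100 proteins or annexins were listed as well. Of 26 listed partners 18 were tested, 2 were higher, 4 were lower and 12 did not pass, with a median log2 fold change of 0; over all tested genes 16.5% were higher and 12.7% lower. Ahnak, the giant scaffold protein bound by the S100A10 and annexin A2 complex, fell from 987.4 ± 52.4 to 610.4 ± 116 CPM (SD, n = 3; log2 fold change -0.69, SE 0.13, edgeR adjusted p = 0.00174). Pla2g4a, the cytosolic phospholipase that S100A10 binds, changed by -0.71 (edgeR adjusted p = 0.00394). Ctsb, encoding cathepsin B, rose by 0.69 (edgeR adjusted p = 0.000624), and Sri, encoding sorcin, a partner of annexin A7, rose by 0.54 (edgeR adjusted p = 0.00251). Plasminogen (Plg), which the complex binds at the cell surface, had 0 counts, and its activator Plat did not pass (-0.72, SE 0.45, edgeR adjusted p = 0.244). Ahnak was lower while both S100a10 and Anxa2 were higher. Pla2g4a, Ctsb and Sri overlap other annotated genes. Without control replicate 2 or 3 the number of lower partners was 2, and without OE replicate 1 the number of higher partners was 4. Over all genes these fits called 1841, 1747 and 3338 in either direction, against 3116 with all libraries.

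Over all tested genes 16.5% were higher and 12.7% lower, and the median log2 fold change was 0.04. Other EF-hand genes included 21 tested of 25 listed, 9 higher and 3 lower, with a median of 0.12. The 4 with the smallest p were Myl6 (0.77), Pef1 (0.82), Capns1 (0.78) and Myl12b (0.62), with edgeR adjusted p of 0.000638, 0.000769, 0.00104 and 0.00359. Capns1 encodes the small subunit of calpains, Pef1 a penta-EF-hand adaptor, and Myl6 and Myl12b light chains of myosin. Of these EF-hand genes 5 were higher without control replicate 2 or OE replicate 2, and 1 was lower without any single control library or with the GC adjustment. Over all genes, calls in either direction fell from 3116 to 1898, 1841 and 1747 without control replicate 1, 2 and 3. They were 2300 without OE replicate 2 and 2472 with the GC adjustment. Of 20 membrane repair and C2-domain genes 16 were tested, 1 was higher and 3 lower, with a median of -0.19. These counts stand beside the same 16.5% and 12.7% over all tested genes. Vamp3, a vesicle SNARE, rose by 0.96 (edgeR adjusted p = 0.00144), while Myof, encoding myoferlin, changed by -0.46, Snap23 by -0.76 and Chmp3, an ESCRT subunit, by -0.31 (edgeR adjusted p = 0.00822, 0.0135 and 0.0457). Myl12b and its near-identical relative Myl12a may share reads, which was not checked, so the value of Myl12b is uncertain. In the membrane repair list 1 gene was lower without control replicate 1 or 3, and without OE replicate 3 there were 5 lower and 2 higher, the latter also with library totals. All-gene calls were 3523 without OE replicate 3 and 3193 with library totals.

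Of 10 tested epithelial markers, 4 were higher (Krt18 by 0.92, Krt8 by 0.74, Krt19 by 0.66 and Vil1 by 0.65) and 1 lower (Cldn7, -1.09), while 5, Epcam (0.07) and Cdh1 (-0.12) among them, did not pass. Over all tested genes 16.5% were higher and 12.7% lower. The 12 listed markers summed to 4160 to 4400 CPM in control and 5430 to 6140 CPM in OE libraries. Their part in the differences of S100a10 and the annexins was not tested. In bulk libraries more cells of a type and more RNA per cell cannot be told apart.

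The genes most alike in pattern were sought over the 6 libraries by Pearson correlation of log2 CPM among 5253 tested genes with a mean log2 CPM of at least 5. Those nearest to S100a10 were Mvp (0.999) and Marchf6 (0.998), and among those nearest to Anxa2 was Fkbp1a (0.996). Fkbp1a was counted at 253.2 ± 6.08 CPM among control and 330.4 ± 62.6 CPM among OE libraries (SD, n = 3), with 260.5 CPM in OE replicate 3. For S100a10, Mvp and Marchf6 the groups are apart, so the values chiefly describe the group difference. Marchf6 passed (log2 fold change 0.42, edgeR adjusted p = 0.0179) and Mvp did not (0.19, edgeR adjusted p = 0.185). For Anxa2 and Fkbp1a OE replicate 3 lay near the control libraries, so the value also describes that library. Picking the highest of 5253 correlations over 6 libraries by itself favours values near 1.

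**Figure D4:**
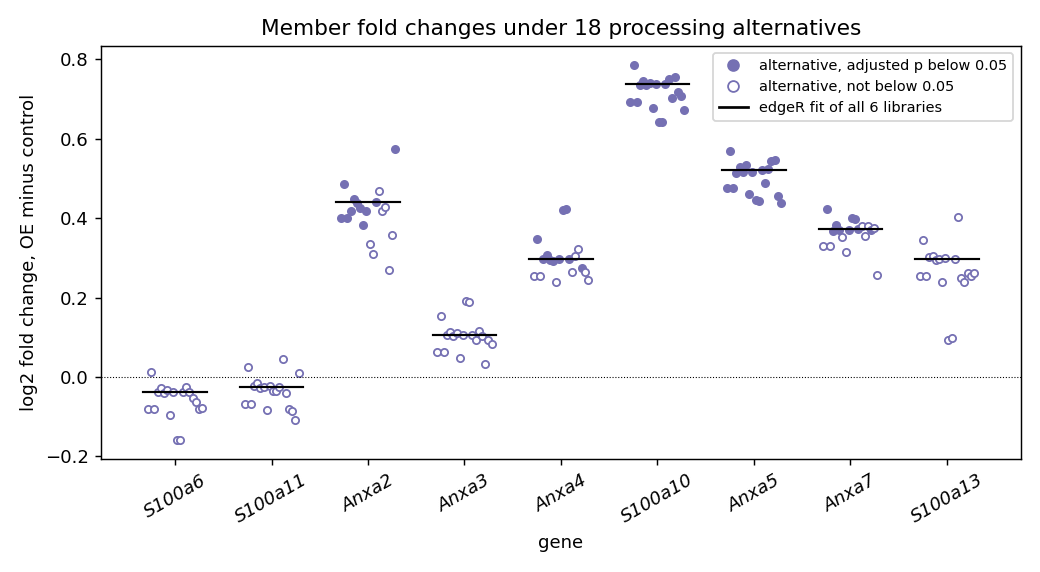
Log2 fold change (OE minus control) of each tested member under 18 processing alternatives (points) and in the edgeR fit of all 6 libraries (black line); filled points had an adjusted p below 0.05. All points of S100a10 (0.64 to 0.79) and Anxa5 (0.44 to 0.57) are filled, while those of Anxa2, Anxa4 and Anxa7 are mixed.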

How the data were processed

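The deposited table gives estimated counts, not normalized, of 52249 Ensembl genes in 6 libraries; 3.1% of the values above 0 were fractional and all were rounded. Per the labels' protocols, libraries were made from 500 ng of RNA with a QuantSeq 3′ forward kit, and the submitters' processing notes name STAR and HTSeq and the builds mm10 and GRCm38. Annotation, strand setting and molecular identifiers are not given in the sources used here; without identifiers reads are not independent molecules, so floors cover counting error only. Columns were matched to samples by library name.

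Groups were compared in edgeR 4.0.16 (R 4.3.3) by its quasi-likelihood test without covariates, after filterByExpr and TMM scaling, two-sided, with Benjamini-Hochberg adjustment over 10687 genes; standard errors are the estimate over the root of F. Means ± SD are of TMM-scaled CPM. Positions are from GENCODE M21 (GRCm38; 99.5% of identifiers found) and promoters from RefSeq (GRCm38.p6). Alternatives were DESeq2 1.42.0, limma-voom (limma 3.58.1), other scalings and filters, equal depth, unrounded counts, removal of abundant genes, a GC offset (loess, span 0.5), the replicate number as a block, and each library left out. The members, lists and tests were chosen with earlier results of these data known. Named genes were all members, tested neighbours within 50 kb, the tested genes of both families, up to 4 called genes per list with the smallest p, and the 2 genes most alike to S100a10 and to Anxa2; others were chosen after their values were seen. Of the genes most alike, 1 is not reported here.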

Additional observations from a re-analysis of the deposited data

How the results depend on the processing

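Of 162 values for the 9 members over 18 alternatives, 134 kept direction and call, 24 lost the call and 4 changed sign. The number of members called higher was 3 with DESeq2's test, with DESeq2 size factors and without mitochondrial genes and CT010467.1, and 2 to 4 when single libraries were left out; the cause was not tested. The number lower was 0 throughout. Over all genes 3116 were called, and 1747 to 3523 when single libraries were left out, with the 3 lowest counts in the fits without a control library. DESeq2's test called 2093 genes, DESeq2 size factors gave 3079, and the removal of mitochondrial genes and CT010467.1 gave 3116. The replicate block called 5 members higher, 0 lower and 3110 genes in all, with 0.74 for S100a10 (edgeR adjusted p = 0.000659); equally numbered libraries deviated together only weakly (r = 0.1, 0.02 and 0.07), so the numbers were not taken as pairs.

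Values near 0 changed sign without passing. With library totals S100a6 became 0.012, S100a11 0.024 and Ppp3cb 0.018. With the GC offset S100pbp became 0.019, Anxa6 -0.021 and Ppp3cb 0.221, and with the block and GC offset Anxa6 was -0.025 and Ppp3cb 0.222. Leaving out single libraries gave -0.108 to 0.045 for S100a11, -0.33 to 0.002 for S100pbp and -0.12 to 0 for Ppp3cb. The log2 difference in the ratio of S100a10 to Anxa2 ran from 0.1 to 0.47 in those fits. For 32 other named genes, 502 of 576 values kept direction and call. Genes near the floor of 3 counts, such as S100g in control libraries, are limited by depth, and whether S100g was tested depended on the count filter.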
